A study of Homo sapiens with 4 samples.

Results

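Expression of 10 genes that encode cytosolic heat shock chaperones or their helpers was examined in MOLM-14, a human acute myeloid leukemia cell line with a monocytic character. The genes were HSPA1B and HSPA8 (HSP70), HSPA4L and HSPH1 (HSP110), DNAJB1 and DNAJA1 (HSP40), HSP90AB1 (HSP90), HSPB1 (small heat shock protein), and the co-chaperones BAG3 and CHORDC1. They were chosen by gene family, with their differences between rapamycin and control arrays already known, so those differences are given as a description with no test. All 10 were matched to a probe set through its Entrez gene number, among 24241 genes with a symbol, and all 10 passed the filter on low signal that left 14635 genes.

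The study compared 2 arrays of cells given 10 nM rapamycin for 24 hours with 2 control arrays of cells without rapamycin. Rapamycin binds FKBP12, and the complex blocks mTORC1, a kinase complex that promotes protein synthesis. The protocols in the labels of all 4 arrays describe MOLM-14 cells transduced with a doxycycline-inducible short hairpin RNA, scrambled or against Pim2, and kept in 200 ng/ml doxycycline for 72 hours. Neither the design nor the agent label mentions a hairpin, and which hairpin, if any, the cells on these arrays carried is not known here. The design text calls the arrays biological replicates of this 1 line, and nothing states separate cultures, so that the errors and p-values measure the spread between arrays, which may be technical in part.

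Heat shock chaperones bind unfolded or newly made proteins and help them to fold, to refold or to be degraded. HSP70 holds short hydrophobic stretches of its clients in a cycle driven by ATP. HSP40 proteins deliver clients to HSP70 and speed up its ATP hydrolysis, while HSP110 and BAG proteins release the spent nucleotide. HSP90 acts later, on nearly folded clients such as kinases and steroid receptors. Some of these genes, HSPA8 and HSP90AB1 among them, are transcribed at a high level in unstressed cells. Others, such as HSPA1B, DNAJB1 and BAG3, are strongly induced when heat shock factor 1 (HSF1) is activated and binds heat shock elements, which are alternating inverted repeats of a short GAA unit.

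The promoter letters of 5 of the genes are shown here. HSPA1B and DNAJB1 have the 2 largest differences, and HSPA8, HSP90AB1 and CHORDC1 have the longest exact matches to a heat shock element. Each run holds the 250 bases before a RefSeq transcript start (build GRCh38.p14), 5′ to 3′ on the strand of the gene, and capitals mark every match to GAANNTTC or TTCNNGAA. The regions are chr6:31827488-31827737 (plus strand) for HSPA1B, chr19:14518398-14518647 (minus strand) for DNAJB1, chr11:123062137-123062386 (minus strand) for HSPA8, chr6:44247693-44247942 (plus strand) for HSP90AB1 and chr11:90223050-90223299 (minus strand) for CHORDC1.
HSPA1B: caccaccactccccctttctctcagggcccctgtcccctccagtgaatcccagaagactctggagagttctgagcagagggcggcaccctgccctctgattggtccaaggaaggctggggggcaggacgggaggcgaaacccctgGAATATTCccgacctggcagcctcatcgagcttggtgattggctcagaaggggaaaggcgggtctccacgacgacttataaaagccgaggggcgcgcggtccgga
DNAJB1: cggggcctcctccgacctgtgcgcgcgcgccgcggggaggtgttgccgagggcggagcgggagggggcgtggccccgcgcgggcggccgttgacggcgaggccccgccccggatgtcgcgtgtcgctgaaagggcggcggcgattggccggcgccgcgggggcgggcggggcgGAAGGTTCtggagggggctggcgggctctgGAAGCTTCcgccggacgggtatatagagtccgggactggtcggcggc
HSPA8: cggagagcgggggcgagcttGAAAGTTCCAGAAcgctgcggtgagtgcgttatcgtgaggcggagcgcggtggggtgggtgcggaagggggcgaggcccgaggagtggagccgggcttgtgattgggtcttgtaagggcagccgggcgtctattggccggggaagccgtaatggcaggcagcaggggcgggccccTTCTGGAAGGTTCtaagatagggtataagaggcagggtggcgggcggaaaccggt
HSP90AB1: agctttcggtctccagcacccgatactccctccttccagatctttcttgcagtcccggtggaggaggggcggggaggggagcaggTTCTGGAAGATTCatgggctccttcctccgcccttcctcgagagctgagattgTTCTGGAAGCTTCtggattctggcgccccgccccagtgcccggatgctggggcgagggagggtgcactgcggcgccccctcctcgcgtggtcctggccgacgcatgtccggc
CHORDC1: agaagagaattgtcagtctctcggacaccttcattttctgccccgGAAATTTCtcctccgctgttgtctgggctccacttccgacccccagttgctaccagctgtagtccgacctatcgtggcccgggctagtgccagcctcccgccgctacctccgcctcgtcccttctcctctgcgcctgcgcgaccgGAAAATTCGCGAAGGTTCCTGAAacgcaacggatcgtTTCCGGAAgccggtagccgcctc

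The same search was run over the 250 bases before every RefSeq start of the 10 genes, 16 windows in all. Both motifs of 8 letters read the same on either strand, so 1 pass covers both strands, and neighbouring matches can share a unit. At least 1 such match stood before 8 of the 10 genes, and none before BAG3 or HSPH1. Each of the 8 genes had its matches in 1 window, so that 8 of the 16 windows held a match. Over all 35116 RefSeq windows of this length, 11.6% held 1 or more. HSPA1B had 1 match, which began 105 bases before its start, and DNAJB1 had 2, at 77 and 47 bases in 1 of its 3 windows. HSPA4L (in 1 of 3 windows), HSPB1 and DNAJA1 had 1 match each.

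A longer element of 3 alternating units, GAANNTTCNNGAA or TTCNNGAANNTTC, is much rarer, and 0.441% of all windows held it on either strand. It was found before 3 of the 10 genes, in 1 window of each and so in 3 of the 16 windows. HSPA8 carried it at 230 and 55 bases before the start, and HSP90AB1 at 165 and 112 bases in 1 of its 3 windows. In CHORDC1 the 3 matches overlapped, at 60, 55 and 50 bases. Each long match contains 2 of the shorter ones. The 2 genes with the largest differences on the arrays, HSPA1B and DNAJB1, had no long match in these windows, as the map of motifs shows. A match is a run of letters and was not tested for binding. Only units with every letter exact were searched, so elements with a changed unit, in these 2 genes or in others, would be missed.

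**Figure D1:**
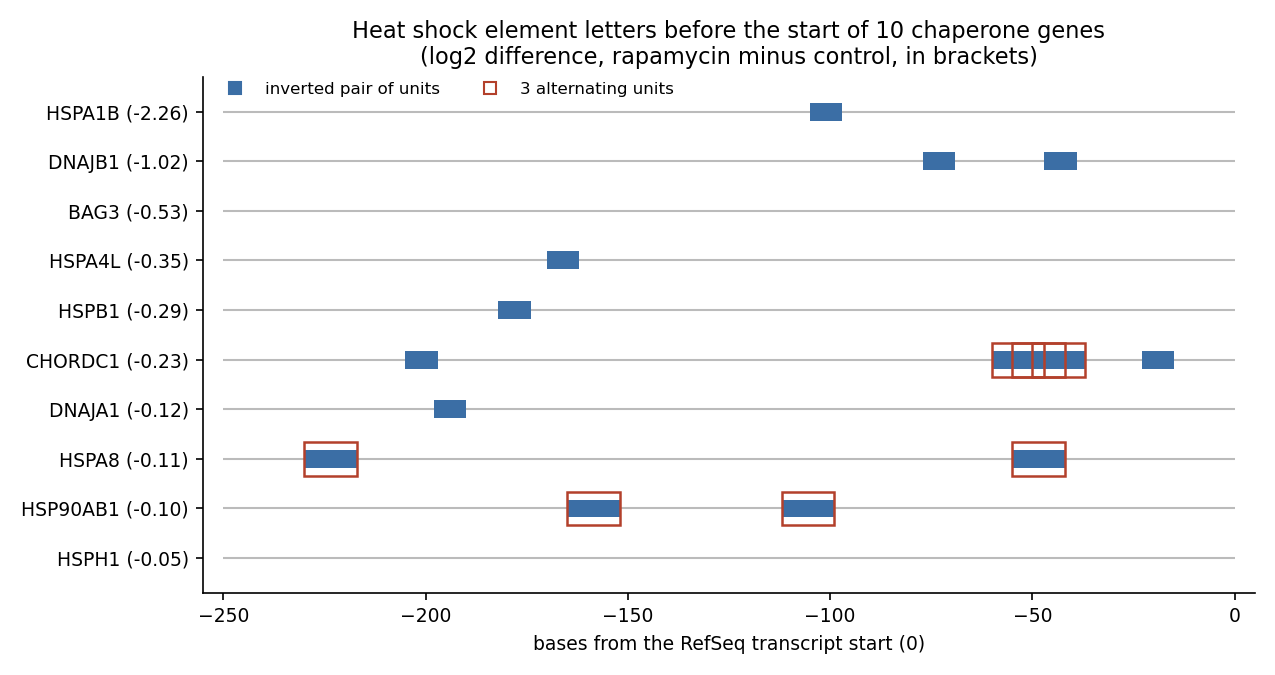
Matches to heat shock element letters in the 250 bases before the RefSeq transcript start (x axis, bases from the start) of the 10 genes, ordered by their log2 difference (rapamycin minus control), which stands in brackets. Filled blocks are the 8-letter matches, open boxes are the matches with 3 units, and a gene with several starts is drawn at the start with most matches; the open boxes lie only in CHORDC1, HSPA8 and HSP90AB1.

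HSPA1B encodes the stress-inducible cytosolic HSP70, and its log2 signal was 8.59 and 8.46 on the rapamycin arrays, against 10.75 and 10.83 on the control arrays. Both rapamycin arrays lay far below both controls, and the nearest pair was 2.15 log2 units apart, while replicates differed by at most 0.13. The log2 difference was -2.26 (SE 0.08), which left 20.9% of the control level, and no gene of the 14635 tested had a lower one. HSPA1A is the neighbouring, nearly identical copy, and its own probe set was at 2.82 and 3.64 with rapamycin, against 3.41 and 3.60 in controls, all under the filter minimum of 4.86. The 250 bases before the starts of HSPA1B and HSPA1A matched at 94.4% of 249 aligned positions. How far the HSPA1B probe set also reads HSPA1A transcripts is not known, so that the share of each copy in this difference is uncertain.

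HSPA8 encodes the constitutive HSP70 of the cytosol and stood at 12.47 and 12.43 log2 units with rapamycin, against 12.51 and 12.61 in controls. Its groups were apart by only 0.04, less than the gap between the control arrays, and its log2 difference was -0.11 (SE 0.06). HSPA8 and HSPA1B, which act on overlapping sets of clients, thus had differences of very unequal size in the same cells.

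The HSP110 proteins are nucleotide exchange factors of HSP70. HSPA4L had signals of 8.68 and 8.44 with rapamycin, against 8.89 and 8.93 in controls, and a log2 difference of -0.35 (SE 0.10). The rapamycin arrays of HSPA4L were lower but lay 0.24 apart from each other, more than the 0.21 that separated the groups. HSPH1, which is also heat-inducible, was at 9.93 and 9.95 with rapamycin, against 10.00 and 9.97 in controls. Its log2 difference of -0.05 (SE 0.07) was the smallest of the 10, below its own standard error in size, and it became slightly positive after a repeated quantile normalization.

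DNAJB1 is the heat-inducible HSP40 that works with HSP70 in disaggregation and that can return HSF1 to its inactive state. It stood at 7.89 and 7.94 log2 units with rapamycin, against 8.79 and 9.08 in controls. The groups were 0.85 apart at their nearest, and the control arrays differed by 0.30. The log2 difference was -1.02 (SE 0.11), or 49.3% of the control level, and 0.109% of all genes tested had a lower one. DNAJA1, an HSP40 that is abundant without stress, had signals of 9.14 and 9.09 with rapamycin, against 9.27 and 9.21 in controls. Its log2 difference was -0.12 (SE 0.08), with groups 0.07 apart.

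BAG3 joins HSP70 to small heat shock proteins and directs clients to autophagy, and BAG3 signal was 6.26 and 6.29 with rapamycin, against 6.72 and 6.88 in controls. Rapamycin replicates nearly coincided, and the groups were apart by 0.43, more than the 0.16 between the controls. The log2 difference of BAG3 was -0.53 (SE 0.12), or 69.4% of the control level. HSPB1 encodes HSP27, a small heat shock protein that holds unfolded clients without ATP. HSPB1 was at 10.22 and 10.40 with rapamycin, against 10.56 and 10.63 in controls, with a log2 difference of -0.29 (SE 0.08). Its groups did not overlap, and the rapamycin arrays differed by 0.18, slightly more than the nearest pair of the groups (0.17).

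HSP90AB1 encodes the constitutive cytosolic HSP90 and had signals of 10.40 and 10.41 with rapamycin, against 10.48 and 10.54 in controls. Its log2 difference was -0.10 (SE 0.07), with groups 0.06 apart. CHORDC1 encodes a co-chaperone with cysteine- and histidine-rich domains that binds HSP90. CHORDC1 was at 5.71 and 5.82 with rapamycin, against 6.22 and 5.77 in controls, so its groups overlapped. The log2 difference of CHORDC1 was -0.23 (SE 0.16) and rested on control replicate 1, without which it was 0.00064.

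**Figure D2:**
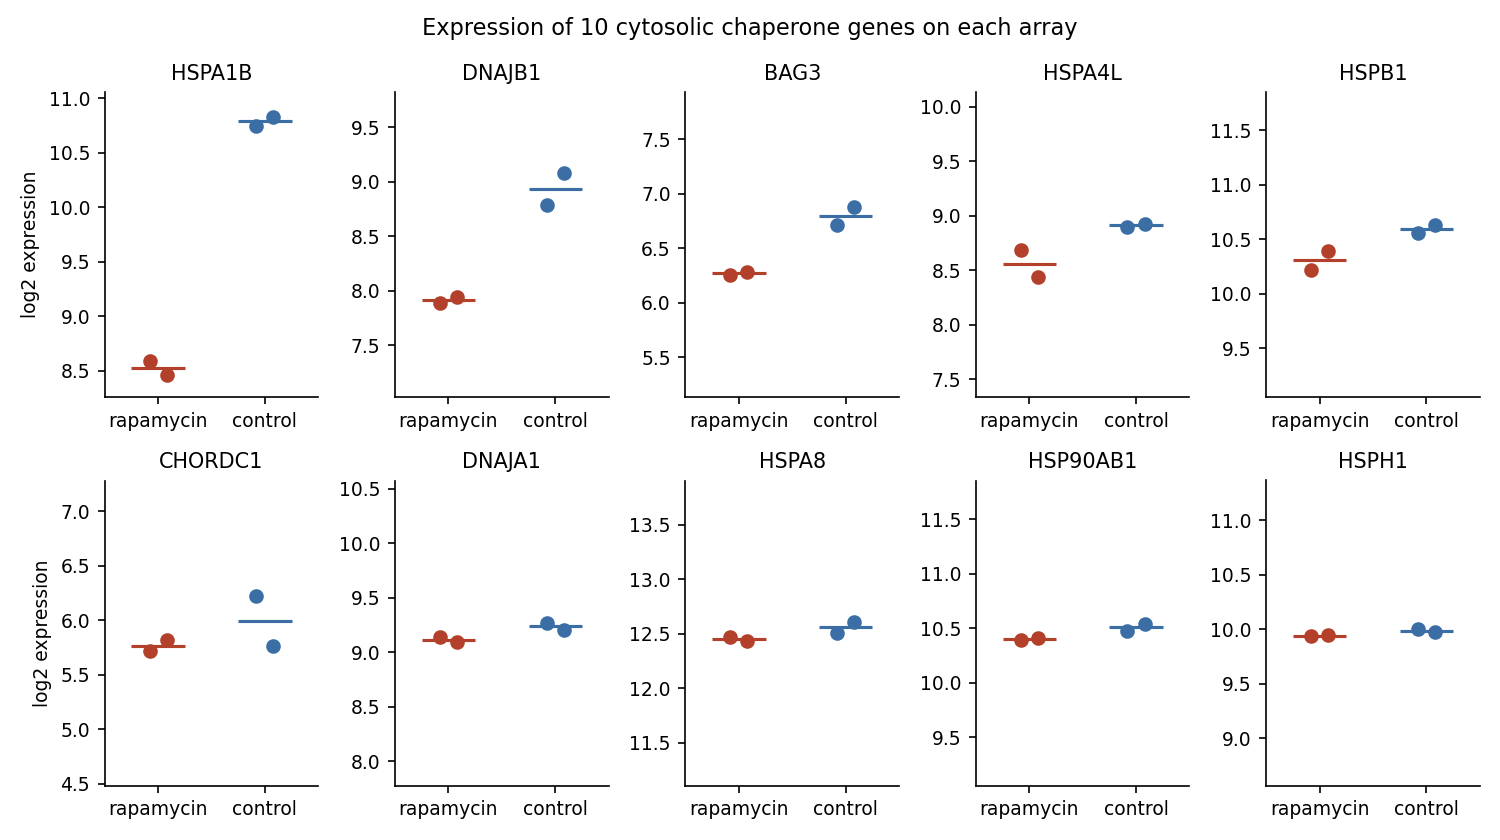
Log2 expression (y axis, the same span of 2.8 log2 units in every panel) of the 10 genes on the 2 rapamycin arrays and the 2 control arrays, as points, with lines at the group means. The groups lie clearly apart for HSPA1B, DNAJB1 and BAG3, while those of HSPH1, HSPA8 and HSP90AB1 nearly meet and those of CHORDC1 overlap.

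All 10 differences were below 0, as were 46.8% of those of all genes tested. Both rapamycin arrays lay below both control arrays for 9 of the 10 genes, and for 21.8% of all genes tested. Both counts describe genes that were chosen on this contrast, and nothing is read from them. The median log2 difference was -0.26 over the 10 genes, -0.18 over the 8 left without HSPA1B and DNAJB1, and 0.01 over all genes tested.

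Ordered by size, the differences ran from HSPA1B through DNAJB1, BAG3, HSPA4L, HSPB1, CHORDC1, DNAJA1, HSPA8 and HSP90AB1 to HSPH1. The step from HSPA1B to DNAJB1 was 1.24 on the log2 scale (combined SE 0.13), and that from DNAJB1 to BAG3 was 0.49 (combined SE 0.16). Each of the 7 later steps was at most 0.18, and none of these 7 was as large as 2 combined standard errors. These steps describe how the chosen genes lie beside each other and are no test of them.

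The other chaperones and co-chaperones of the cytosol, listed by their function, showed no gene past the test. They are the genes left once the 10, chosen with their differences known, were taken out. Their counts were thus set in part by that choice, and nothing is read from them. Of 81 listed, 76 were measured and 61 passed the filter, and limma (adjusted p under 0.05) called 0 lower and 0 higher, against 0.861% called lower and 0.417% called higher over all genes. At an unadjusted p under 0.05 there were 5 lower and 0 higher of 61, while 8.23% of all genes were lower and 7.22% higher at that p. Their median log2 difference was -0.02, and 20 of 61 had both rapamycin arrays below both controls, against 21.8% of all genes. Without rapamycin replicate 1, 3 of them were called lower, and these were DNAJB4, DNAJC27 and SUGT1. That fit, like each one that leaves out an array, has 1 array in a group, which is assumed to vary like the arrays of the other group. DNAJC27 and SUGT1, a co-chaperone of HSP90, are named here after their values were seen, and SUGT1 had a log2 difference of -0.44 (SE 0.09, limma adjusted p = 0.0559) with all arrays.

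Relatives of the 10 genes were examined next. HSPA4, the third HSP110, had a log2 difference of -0.12 (SE 0.07, limma adjusted p = 0.474), HSPA14, a ribosome-bound HSP70, of -0.09 (SE 0.10) and HSPA12B, a distant HSP70 relative, of 0.04 (SE 0.12). HSPA6, a strictly inducible HSP70, was at 4.78 and 4.41 with rapamycin, against 4.93 and 5.03 in controls, with both rapamycin arrays lower, and its mean missed the filter. HSP90AA1, the inducible cytosolic HSP90, was at 5.56 and 5.62 with rapamycin, against 5.64 and 5.71 in controls (log2 difference -0.09, SE 0.13, limma adjusted p = 0.799). That signal lay near the array medians (5.38 to 5.45), and how well this probe set reads HSP90AA1 is not known. HSP90AA1 carried 1 long heat shock element match, 88 bases before 1 of its 2 starts.

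Of 16 tested J-domain genes besides DNAJB1 and DNAJA1, 0 were called by limma and 1 had an unadjusted p under 0.05. That gene was DNAJB4, a close relative of DNAJB1, at 6.82 and 6.53 with rapamycin, against 7.02 and 7.29 in controls. The groups of DNAJB4 did not overlap, and its log2 difference was -0.48 (SE 0.14), but the limma adjusted p was 0.141. When 1 array was left out, the adjusted p of DNAJB4 was 0.0212 without rapamycin replicate 1, 0.271 without rapamycin replicate 2, 0.11 without control replicate 1 and 0.647 without control replicate 2. The values of DNAJA2 (-0.04, SE 0.09) and DNAJB6 (0.05, SE 0.09) were within their standard errors, and the ribosome-bound DNAJC2 stood at -0.12 (SE 0.08) in log2 difference. DNAJC7, which binds HSP70 and HSP90, stood at -0.07 (SE 0.07), and DNAJC21, which acts in ribosome maturation, at -0.02 (SE 0.08). Among small heat shock proteins, HSPB8 and HSPB9 alone passed the filter besides HSPB1, with log2 differences of -0.06 (SE 0.17) and 0.21 (SE 0.16), and 0 of these 2 was called at either p.

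HSP70 co-factors other than BAG3 had 0 of 8 called, and 1 at an unadjusted p under 0.05. BAG2, which blocks the ubiquitin ligase CHIP, had a log2 difference of -0.08 (SE 0.10), BAG6 of 0.05 (SE 0.09) and the HSP70-interacting protein ST13 of 0.09 (SE 0.10). For HSP90 co-factors, limma called 0 of 15, with 2 lower at an unadjusted p under 0.05. STIP1, which bridges HSP70 and HSP90, had a log2 difference of 0.12 (SE 0.07), the kinase co-chaperone CDC37 of 0.14 (SE 0.09), and the immunophilins FKBP4 and FKBP5 of 0.02 (SE 0.10) and 0.00 (SE 0.09). The cytosolic chaperonin, which folds actin and tubulin, and its partner prefoldin had 0 of 14 called by limma, and 1 lower at an unadjusted p under 0.05, with TCP1 at 0.05 (SE 0.06), CCT2 at 0.03 (SE 0.07) and CCT8 at 0.07 (SE 0.07).

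In the endoplasmic reticulum, 2 of 17 tested chaperone genes fell and 0 rose by limma. The list of this compartment was written with earlier results of these data known, so its counts are no independent evidence. HSPA5, the HSP70 of this compartment, was at 9.91 and 9.82 with rapamycin, against 10.53 and 10.50 in controls, with a log2 difference of -0.65 (SE 0.07, limma adjusted p = 0.00456, and 0.0842 without the mean-variance trend). That is larger than the difference of the cytosolic HSPA8 and smaller than that of HSPA1B, which were not tested against it. DNAJC1, a J-domain protein of the endoplasmic reticulum membrane, fell by 0.44 on the log2 scale (SE 0.09, limma adjusted p = 0.0478). The adjusted p of DNAJC1 was 0.067 when control replicate 1 was left out and 0.414 when control replicate 2 was, and DNAJC1 also missed the threshold with no filter (0.105), without the trend (0.178) and after repeated quantile normalization (0.0591). HSP90B1, CALR and CANX had log2 differences of -0.22, -0.23 and -0.15 and missed the threshold. Over the 17 genes the median was -0.22, and 14 of 17 had both rapamycin arrays below both controls, against 21.8% of all genes. At an unadjusted p under 0.05, 11 of 17 were lower and 0 higher, against 8.23% and 7.22% of all genes, and the share of all genes called lower with adjustment was 0.861%. The number that fell was 5 without rapamycin replicate 1.

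Mitochondrial chaperones had 0 of 13 called by limma in either direction, against 0.861% called lower and 0.417% called higher over all genes. At an unadjusted p under 0.05, 1 of 13 was lower and 0 higher, against 8.23% and 7.22% of all genes. HSPA9, the HSP70 of mitochondria, had signals of 11.90 and 11.86 with rapamycin, against 12.06 and 12.01 in controls, and a log2 difference of -0.16 (SE 0.06, limma adjusted p = 0.247). The chaperonin HSPD1 stood at 0.07 (SE 0.12), TRAP1, the HSP90 of mitochondria, at 0.01 (SE 0.09) and the protease subunit CLPX at -0.13 (SE 0.08) in log2 difference. The median of the list was -0.06, and this list was also written with earlier results of these data known. Both rapamycin arrays lay below both controls for 5 of 13 genes, against 21.8% of all genes, and above both for 2 of 13.

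**Figure D3:**
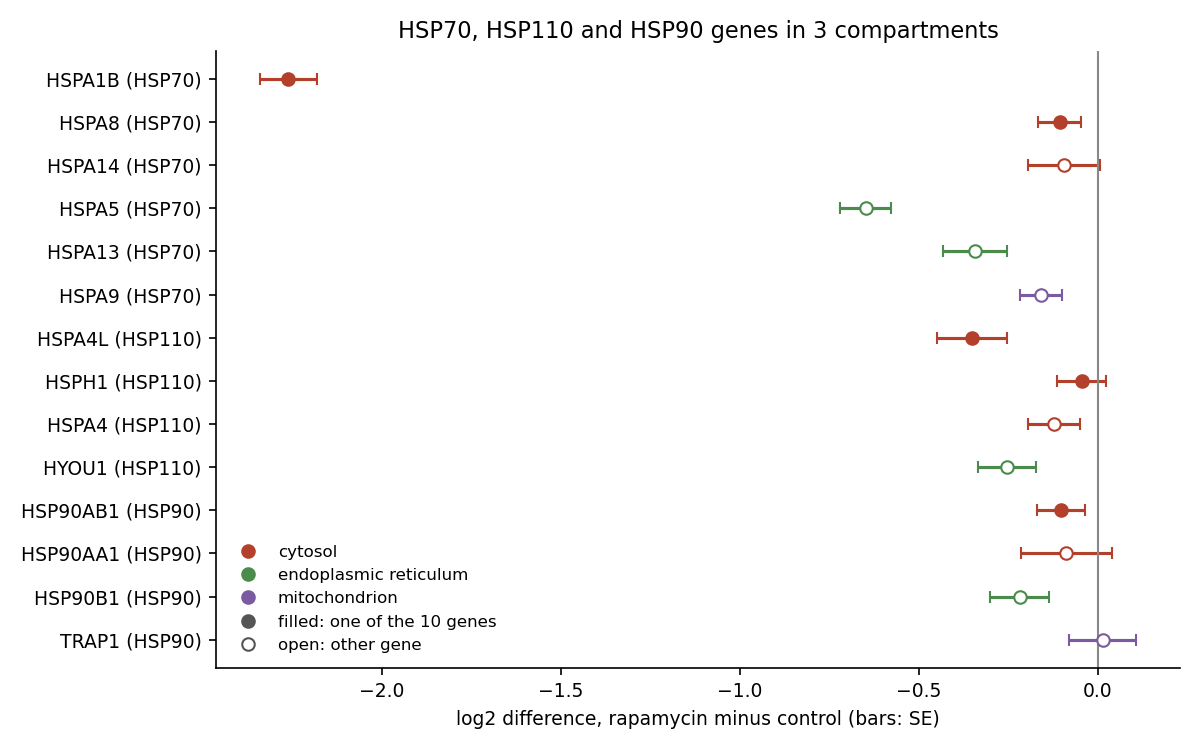
Log2 difference between rapamycin and control (x axis, rapamycin minus control, bars are SE, 2 arrays each) of HSP70, HSP110 and HSP90 genes, coloured by the compartment of the protein. HSPA1B lies at -2.26, HSPA5 at -0.65, and the other 12 genes between -0.35 and 0.01. Tested HSP70 relatives not drawn are HSPA1L (0.11, SE 0.14), HSPA12A (0.06, SE 0.17) and HSPA12B (0.04, SE 0.12).

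HSF1 itself was at 7.83 and 7.94 log2 units with rapamycin, against 7.86 and 7.96 in controls, and its log2 difference was -0.02 (SE 0.09, limma adjusted p = 0.948). None of the 4 tested heat shock factor and binding protein genes was called by limma (0 of 4, and 0 at an unadjusted p under 0.05), with HSF4 at 0.03 (SE 0.12) and the HSF1-binding HSBP1 at 0.08 (SE 0.10). HSF1 is controlled mostly as a protein, which the arrays do not measure.

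Of 10 tested genes known as HSF1 targets outside the chaperones of the cytosol, 1 fell and 0 rose by limma, against 0.861% called lower and 0.417% called higher over all genes. At an unadjusted p under 0.05, 4 of 10 were lower and 0 higher, against 8.23% and 7.22% of all genes. The gene that fell was RGS2, a brake on G protein signalling that other pathways also induce (log2 difference -1.39, SE 0.14, limma adjusted p = 0.00318). This list was written with earlier results of these data known. RGS2 was known then to be lower on these arrays, so neither RGS2 nor the counts of the list add independent evidence. Every count of lower genes in this list, and its median, includes RGS2. ZFAND2A (AIRAP), a proteasome-associated protein induced by arsenite and heat, was at 7.67 and 7.87 with rapamycin, against 8.23 and 8.25 in controls. Its groups were clearly apart, and its log2 difference of -0.47 (SE 0.10) had a limma adjusted p of 0.0607, so ZFAND2A missed the threshold. Its adjusted p was under 0.05 in 4 settings, namely 0.0284 after centring the arrays, 0.039 with replicate number as a block, 0.0285 without rapamycin replicate 1 and 0.0101 without rapamycin replicate 2. It was above 0.05 in the 8 others, among them 0.127 with no filter, 0.177 without the trend, 0.194 without control replicate 1 and 0.312 without control replicate 2. IER5, which promotes HSF1 activity, had a log2 difference of -0.27 (SE 0.10), and SERPINH1, a collagen chaperone, of -0.18 (SE 0.11). Of the 10 genes, 8 lay below 0, while HMOX1 (0.25, SE 0.15) and ATF3 (0.13, SE 0.16) lay above it. The list had a median of -0.21, and 6 of 10 had both rapamycin arrays below both controls, against 21.8% of all genes.

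**Figure D4:**
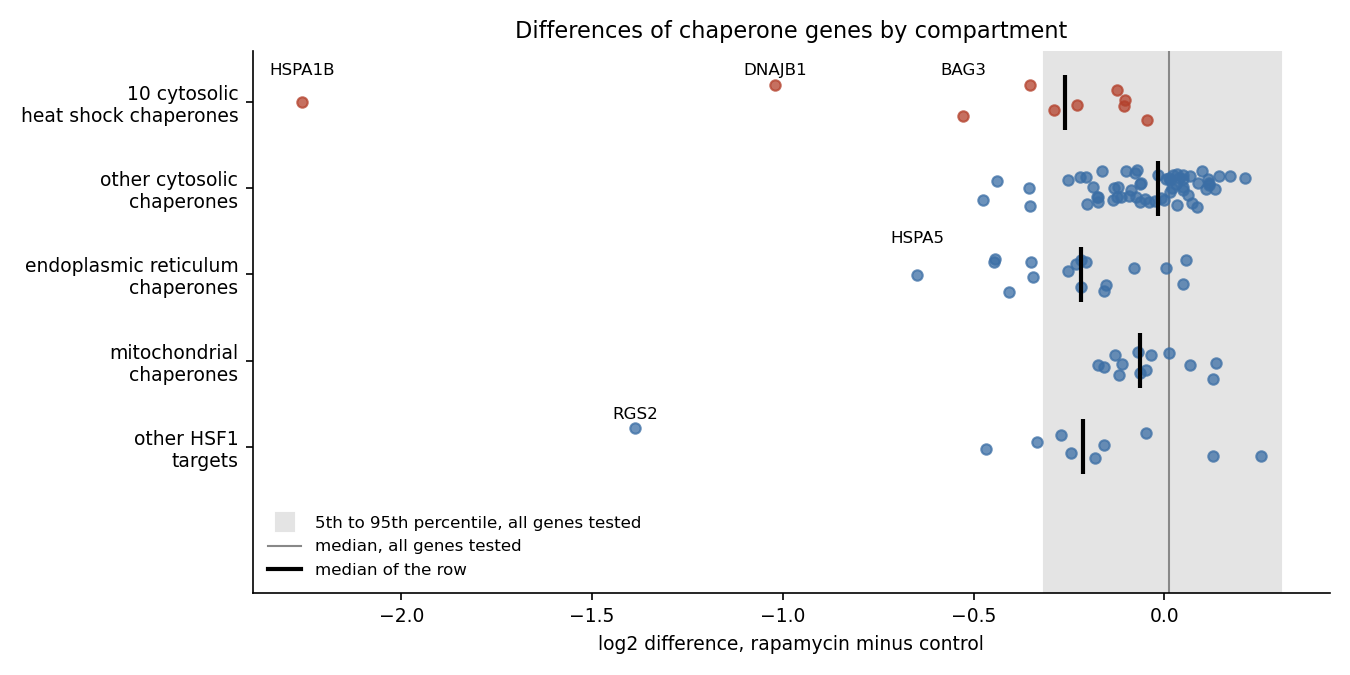
Log2 difference (x axis, rapamycin minus control) of each tested gene, as points, in the 10 cytosolic heat shock chaperones and 4 other lists, with a black line at the median of each row and grey shading from the 5th to the 95th percentile of all genes tested (-0.31 to 0.30). The 10 genes were chosen with these differences known; HSPA1B and DNAJB1 lie far left of the shading, and the row of other cytosolic chaperones is centred at -0.02.

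The heat shock element letters were also counted over all tested genes with a RefSeq window, leaving out the 10. Among 1310 genes with an 8-letter match, limma called 7 lower (0.534%) and 1 higher. Of all 11113 such genes with a window, 91 (0.819%) were called lower and 36 higher. The lower genes were CNOT6L, CXCR4, DDIT4, GAS2L3, GLCCI1, MAP2K6 and S100P, between -0.85 (MAP2K6) and -0.40 (CNOT6L), and the higher one was FAM78A at 0.50 in log2 difference, all named after their values were seen. Among the 50 genes with a match of 3 units limma called 0 in either direction, and their median log2 difference was -0.02. At an unadjusted p under 0.05, 3 of 50 were lower and 4 higher, against 949 lower and 780 higher of the 11113 with a window. At that p, 124 of the 1310 genes with an 8-letter match were lower and 90 higher. Both rapamycin arrays lay below both controls for 340 of these 1310 and above both for 306, against 2530 and 2742 of the 11113. Without rapamycin replicate 1, the count of lower genes with an 8-letter match was 97, as calls over all genes also increased in that setting (857 lower).

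The median profile of the 10 genes, each centred on its own mean, was -0.11 and -0.08 log2 units on the rapamycin arrays, against 0.13 and 0.14 on the control arrays. The protein-coding genes nearest to it over the 4 arrays, of 12419 compared, were SDF2, MAIP1, ARHGAP11A, RAB3GAP2 and TFG, at root mean square distances of 0.022 to 0.023. Within 0.1 of this profile lay 2270 genes, so that the profile is shared widely at this precision.

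Array medians lay between 5.38 and 5.45 log2 units. Over all probe sets the rapamycin arrays correlated at 0.994 and the control arrays at 0.996, with 0.992 to 0.994 between the groups, so the rapamycin arrays were no more alike than some pairs of unlike treatment. Of 11 measured markers of myeloid leukemia cells, 10 were above the filter minimum, with CD14 below it, and the mean of all 11 was 8.57 and 8.65 on the rapamycin arrays, against 8.60 and 8.63 on the controls. Single markers lay in both directions under that mean. Of the 10, limma called 0, and at an unadjusted p under 0.05 there were 2 lower and 2 higher. These were MEIS1 at -0.37 (SE 0.14), CD68 at -0.18 (SE 0.07), FLT3 at 0.24 (SE 0.07) and CSF1R at 0.34 (SE 0.11) in log2 difference, while LYZ stood at -0.13 (SE 0.07). Their part in the differences above was not tested. Of 10 measured markers of other cell types, 4 were above the minimum, and the mean of all 10 was 4.66 and 4.82 on the rapamycin arrays, against 4.60 and 4.71 on the controls. The largest replicate gap among them was that of the epithelial keratin KRT8, at 6.46 and 7.60 with rapamycin, against 6.80 and 6.92 in controls, and its part in any difference above was not tested. COL1A1 and PECAM1 had log2 differences of 0.14 (SE 0.13) and 0.26 (SE 0.14). Of 7 measured reference genes limma called 0 (0 at an unadjusted p under 0.05), with a median log2 difference of 0.00 and B2M at -0.13 (SE 0.07), HPRT1 at 0.09 (SE 0.08) and TBP at 0.09 (SE 0.07).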

How the data were processed

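Total RNA of MOLM-14 cells was copied to biotin-labelled DNA for 4 Affymetrix arrays, per the labels' protocols. The deposited table gives each probe set a log2 value on every array, taken as log2 from the range of 1.81 to 13.32. The submitters' processing notes name RMA and Partek, with no version or role, and the genome build is not given in the sources used here. The values were used as deposited by the authors. Of 25582 probe sets, 24244 had 1 gene symbol in the platform annotation, and the other 1338, with no symbol or several, were counted together. No symbol needed updating through the RefSeq gene table (GRCh38.p14).

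Probe sets under the 40th percentile of the mean over the 4 arrays (4.86) were left out, and the probe set with the highest mean stood for a gene. The groups were compared across all 14635 genes with limma 3.58.1 under R 4.3.3 (group as the only term, eBayes with a mean-variance trend, two-sided, Benjamini-Hochberg over all genes, threshold 0.05). Log2 differences are rapamycin minus control, with the moderated SE. Residual degrees of freedom were 2, to which moderation added 7.27; the median SE was 0.12, and the number of arrays limits the precision. The code was tested on simulated data.

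The 10 genes and the gene lists were chosen with earlier results of these data known. Listed genes with no probe set under their symbol (AHSA1, HSF2 and HSPE1 among others, in several lists) were not analysed here. Within a list, the text names each gene past the test and the 3 with the highest mean among the rest, besides paralogues and regulators that the rule lists and the 5 nearest profiles. HSPA1L, HSPA12A, DNAJC27, SUGT1, HMOX1, ATF3, CD14, MEIS1, CSF1R and the called genes with a promoter match fall outside this rule. Motifs were searched with Python 3.11.15 in the 250 bases before RefSeq starts. Alternatives were another filter, moderation, normalization, gene summary, a replicate block and leaving out each array.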

Additional observations from a re-analysis of the deposited data

How the results depend on the processing

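The 10 genes were followed through 12 alternative settings. Differences stayed below 0 in every setting for 8 of them, HSPA1B between -2.33 and -2.19, DNAJB1 between -1.17 and -0.87 and BAG3 between -0.61 and -0.45. The filters, the moderation and the replicate block cannot change a gene's log2 difference, and the gene summary left all 10 unchanged. Only the centring, the repeated quantile normalization and the fits without 1 array could thus move a difference. HSPH1 was 0.0041 after a repeated quantile normalization, and CHORDC1 was 0.00064 without control replicate 1, -0.46 without control replicate 2, and missed the filter at the 60th percentile. The median of the 10 genes (-0.26) was -0.29 with arrays centred on their medians, and ran from -0.30 to -0.19 when 1 array was left out. With the 60th percentile filter the median was -0.29 over the genes left without CHORDC1, whose own differences did not change.

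Over all genes, 126 lower and 61 higher calls became 43 and 17 when unfiltered, 13 and 4 when the trend was left out, 238 and 79 with centred arrays, and 205 and 116 with the replicate block. Leaving out 1 array gave 47 to 857 lower and 29 to 443 higher calls. Other cytosolic chaperones (0 lower) had 1 lower, SUGT1, with the 60th percentile filter, with centred arrays and with the replicate block, and 0 to 3 with 1 array left out. Endoplasmic reticulum chaperones (2 lower) had 1 with no filter, 0 without the trend, 1 after repeated quantile normalization, and 1 to 5 with 1 array left out. Other HSF1 targets (1 lower) had 2 with centred arrays and with the replicate block, and 1 to 2 with 1 array left out. The cause of these shifts was not tested.

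In the labels, same-numbered arrays are linked only by their replicate number. Their deviations from the group means correlated at -0.03 over genes, which cannot show how the cultures were handled. Whether the block pairs cultures is not known.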
